A study of Mus musculus with 25 samples.

Results

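The complement genes described here are 33 genes taken by symbol, all of them present among the 24984 genes of the count table. They were divided by role into 7 recognition molecules, 3 initiating proteases, 7 genes of C3, C4 and the enzymes that cut C3, 7 genes of the terminal pathway, 3 soluble regulators, 3 membrane regulators and 3 receptors. Complement is a cascade of plasma proteins in which recognition molecules (C1q, the mannose-binding lectins and the ficolins) bind a target and switch on serine proteases, which cut C4 and C2 to form an enzyme that cuts C3. Factor B, factor D and properdin build a second such enzyme on deposited C3, and C5 to C9 then assemble into a pore in the target membrane. Hepatocytes are known as the main source of most of these plasma proteins, macrophages as a source of C1q and properdin, and fibroblasts as a source of C1r, C1s and the C1 inhibitor.

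RNA was sequenced from 25 libraries. Of these, 9 came from BMEL cells, a bipotential progenitor line of embryonic mouse liver from a mouse given as C57B/6_C3H, growing on collagen: 3 cultures of control cells carrying an empty vector (BMEL WT), and 3 each of cells carrying the HRasG12V oncogene sorted for weak (RasLOW) or strong (RasHIGH) fluorescence of the Venus or mCherry reporter on the same vector. The other 16 came from 4 athymic nude mice, which lack T cells because of the Foxn1nu mutation. BMEL-Ras cells were injected into the liver, and the liver tumour and the peritoneal tumour of each mouse were dissociated and sorted into fluorescent tumour cells and non-fluorescent stromal cells. BMEL is 1 line, the sorted Ras populations stayed mixed in oncogene level, the labels do not state which Ras population the 4 mice received, and the age of the mice is not given in the sources used here.

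Library totals ran from 20818989 to 51241336 counts, so that 3 counts corresponded to between 0.0585 and 0.144 CPM (counts scaled by the library total), a floor that covers counting error only. The labelled cell types were checked on marker lists, each summed in CPM within a library. The epithelial list (Krt8, Krt18, Krt19, Epcam and Cdh1) summed to between 6972 and 10847 in cultured and sorted tumour cells, although Epcam alone stayed under 1 CPM there, and to between 664 and 1535 in stroma. Of its 5 genes, 4 were lower in stroma than in tumour cells at both sites and 1 was higher. The log2 fold change of the higher one was 6.29 in liver and 6.34 in peritoneum, so that the sum does not speak for each gene. The leukocyte list summed to between 2186 and 4079 in stroma and to at most 93.8 in tumour cells. The fibroblast list lay between 4096 and 8236 in liver stroma and between 52772 and 81039 in peritoneal stroma. The hepatocyte list lay between 39.5 and 254 in liver stroma, highest in mouse 2, and at 2.8 or less in peritoneal stroma. Peritoneal tumour cells of mouse 1 stood apart, with a macrophage sum of 192 against 26.4 to 34.9 in the other 3 and a fibroblast sum of 1461 against 212 to 325. The same library was apart in its endothelial (38.7 against 4.1 to 4.8), neutrophil (57.6 against 7.31 to 8.72), monocyte (13.3 against 0.979 to 1.28) and Kupffer sums (6.12 against 0.295 to 0.557). Its dendritic cell sum was not (5.99 against 5.76 to 7.77).

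Within the tumours most complement genes were higher in stroma than in tumour cells. Of the 33 members, 27 passed the filter on low counts in the comparison of liver stroma with liver tumour cells, and 25 of these were higher in stroma and none lower at an adjusted p under 0.05 (edgeR quasi-likelihood test), against 39.4% of all genes tested that were higher and 38.4% that were lower. In the peritoneum 24 passed the filter, and 21 were higher in stroma and none lower, against 37.1% and 39.5% of all genes tested. The median log2 fold change of the members tested was 4.91 in liver and 4.85 in peritoneum, and that of all genes tested was -0.0036 and -0.07. A member that passed the filter only through the stroma had to differ, so that these counts describe the members and are not evidence about complement genes as a class. In such bulk samples, fewer cells of a type and less RNA per cell cannot be told apart.

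By role, all 5 recognition genes, 3 initiating proteases, 6 convertase genes, 5 terminal genes, 2 soluble regulators and 3 receptors tested in liver were higher in stroma, and 1 of the 3 membrane regulators. In peritoneum these were all 4, 3, 6, 2 and 3 of the recognition, initiating, convertase, soluble regulator and receptor genes tested, 2 of 3 terminal genes and 1 of 3 membrane regulators. C5ar1, the receptor for the C5a fragment on myeloid cells, had the largest difference in liver among members with counts in both populations, at 304, 269, 267 and 274 CPM in stroma and at 0.365, 0.763, 0.606 and 0.96 CPM in tumour cells (log2 fold change 8.75 ± 0.20 (SE), adjusted p = 7.84e-12). No tumour library came near a stromal one, and in peritoneum the log2 fold change was 6.68 (adjusted p = 0.000493). Fcnb gave no count in liver tumour cells and was at least 37.2-fold higher in liver stroma, and C7 gave none in tumour cells and was at least 29.8-fold higher in peritoneal stroma. The members that did not pass were Cd55 and Cd46 at both sites and Hc in peritoneum.

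**Figure D1:**
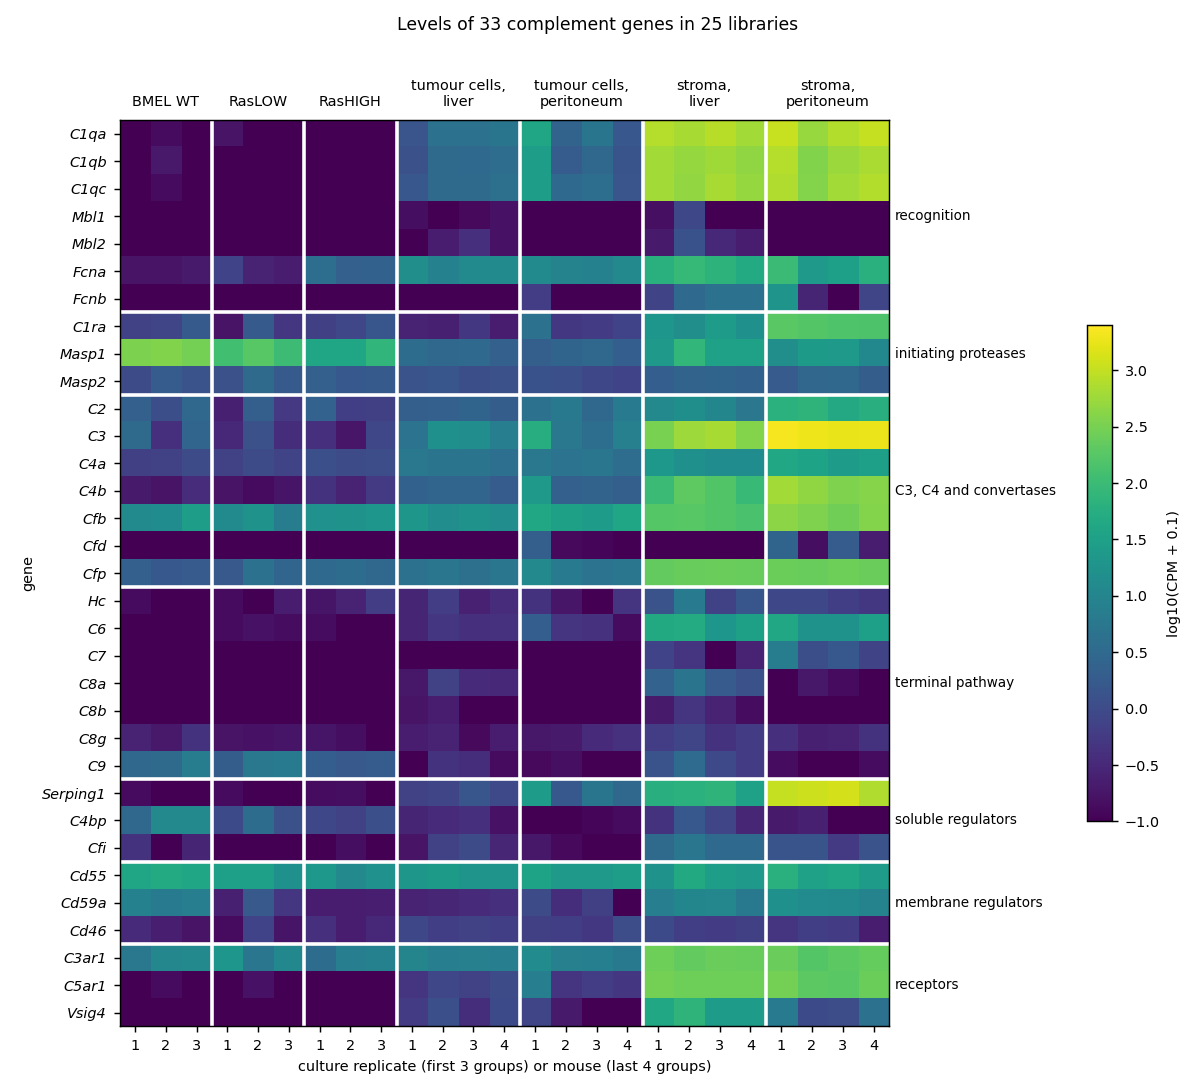
Levels of the 33 complement genes (rows, grouped by role) in each of the 25 libraries (columns, grouped by cell population, with the culture replicate or mouse below), as log10 of CPM plus 0.1. Most rows are brightest in the 8 stromal libraries on the right, while Masp1, C4bp and C9 are brightest in cultures, and the column of peritoneal tumour cells of mouse 1 is brighter than its neighbours for C1qa, C1qb, C1qc, C3, C4b and Serping1.

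The recognition molecule C1q, made of 3 chains encoded side by side, was abundant in stroma per kilobase of exon, with C1qa and C1qb above every other member at both sites. C1qa (chr4:136451832-136454718, minus strand), C1qb (chr4:136436044-136442102, minus strand) and C1qc (chr4:136445719-136448980, minus strand) are neighbours on mouse chromosome 4 in the mm9 build used for the counts. RefSeq promoter sequences, which run from 250 bases before to 50 bases after the start site on GRCm38.p6, were found for 25 of the 33 members, and those of C1qb (chr4:136886151-136886450, minus strand) and C1qc (chr4:136892865-136893164, minus strand) are shown because these neighbouring genes were high in stroma at both sites. Here and below, capitals mark matches to any of 8 motifs sought on both strands: PU.1 (GAGGAAGT), ETS (CCGGAAGT), AP-1 (TGANTCA), the CCAAT and TATAAA boxes, GAS (TTCNNNGAA), ISRE and NF-kB. In C1qc this was the PU.1 motif, held on either strand by 3.2% of 32817 promoters of this length, while the C1qb window held none of the 8.
C1qb: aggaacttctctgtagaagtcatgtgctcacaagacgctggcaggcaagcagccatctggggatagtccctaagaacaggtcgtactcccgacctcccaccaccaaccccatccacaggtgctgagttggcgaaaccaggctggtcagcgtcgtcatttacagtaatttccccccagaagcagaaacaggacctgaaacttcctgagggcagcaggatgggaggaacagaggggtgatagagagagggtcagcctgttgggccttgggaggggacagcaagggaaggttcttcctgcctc
C1qc: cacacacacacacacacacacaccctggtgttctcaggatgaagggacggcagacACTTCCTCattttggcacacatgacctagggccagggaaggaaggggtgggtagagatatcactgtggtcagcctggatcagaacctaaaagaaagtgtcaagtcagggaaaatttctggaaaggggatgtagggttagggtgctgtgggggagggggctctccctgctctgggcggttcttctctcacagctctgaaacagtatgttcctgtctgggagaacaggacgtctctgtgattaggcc

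In liver stroma C1qa was at 807, 659, 855 and 624 CPM in mice 1 to 4, and in peritoneal stroma at 1055, 517, 796 and 1019.7 CPM. The levels at both sites overlapped (liver minus peritoneum, log2 fold change -0.25 ± 0.21 (SE), adjusted p = 0.403). C1qb and C1qc gave the same picture, with log2 fold changes of -0.19 and -0.19 that did not pass (adjusted p = 0.541 for each). Per kilobase, the means were 708, 501 and 295 CPM for C1qa, C1qb and C1qc in liver stroma, and 815, 555 and 325 CPM in peritoneal stroma. Each of the 3 genes gave at most 3 counts in any group of cultures. In liver tumour cells C1qa was at 1.32, 4.49, 4.48 and 5.06 CPM and in peritoneal tumour cells at 39.4, 2.39, 4.99 and 1.44 CPM, so that mouse 1 was far above the other 3 in the peritoneum. Stroma exceeded tumour cells in liver for C1qa (log2 fold change 7.63 ± 0.36 (SE), adjusted p = 2.42e-09), and in peritoneum (log2 fold change 6.07 ± 1.14 (SE), adjusted p = 0.00117).

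The other recognition molecules were far lower. Fcna, which encodes ficolin A, a soluble lectin-like protein of macrophages, was at 62.3, 86.9, 69.8 and 48.9 CPM in liver stroma and at 99.2, 23, 30.5 and 62.9 CPM in peritoneal stroma. The sites overlapped and their difference did not pass the test (log2 fold change 0.27 ± 0.40 (SE), adjusted p = 0.654). Fcnb, the ficolin of neutrophils and their precursors, was at 0.709, 3.12, 4.34 and 4.48 CPM in liver stroma and at 18.9, 0.187, 0 and 0.737 CPM in peritoneal stroma, so that the peritoneal mean rested on mouse 1. That library also had the highest neutrophil list, at 2884 CPM against 511 to 575 in the other peritoneal stroma, and the part of neutrophils in the Fcnb value was not tested. Without that library, Fcnb was higher in liver stroma (log2 fold change 3.28, adjusted p = 0.0257), whereas with it the value was -0.72 (adjusted p = 0.716). Mbl1 and Mbl2, the mannose-binding lectins made by hepatocytes, were at 0 in cultured cells and in both peritoneal populations, and in liver stroma both were highest in mouse 2, at 0.807 and 1.19 CPM. Neither passed the filter in any comparison of 2 groups.

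The sites of the stroma differed in which complement genes they held. Of 27 members tested, 5 were higher in liver stroma and 8 were lower, that is higher in peritoneal stroma, against 14.9% and 18.5% of all genes tested. The 8 were Serping1, C1ra, C7, C2, C3, C4b, Cfb and C4a. The 5 were C8a, C9, Vsig4, Cfi and Masp1. The remaining 14 did not pass, among them the C1q chains, properdin and the receptors C3ar1 and C5ar1. The median log2 fold change was -0.19 over the members and 0.02 over all genes tested.

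**Figure D2:**
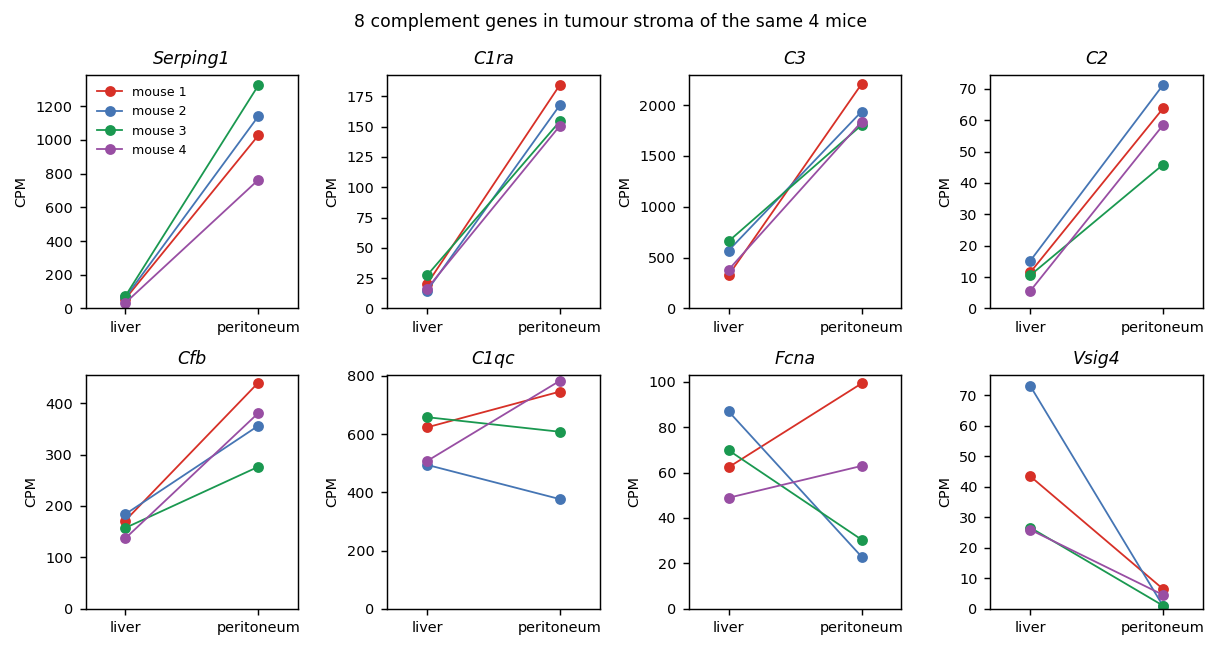
CPM of 8 complement genes in stroma of the liver and peritoneal tumour of each of the 4 mice, a line joining the sites of a mouse. Serping1, C1ra, C3, C2 and Cfb rise from liver to peritoneum in every mouse, C1qc and Fcna go either way, and Vsig4 falls in every mouse.

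Serping1, which encodes the C1 inhibitor and so restrains C1r, C1s and the Masp proteases, had the largest difference among members with more than 3 counts at both sites. It was at 57.3, 65.3, 73.6 and 33.4 CPM in liver stroma and at 1027, 1141, 1324 and 763 CPM in peritoneal stroma. The sites did not overlap (log2 fold change -4.26 ± 0.27 (SE), adjusted p = 6.01e-06). C1ra encodes the protease C1r that C1q activates, and it was at 20.1, 14.6, 27.2 and 16.3 CPM in liver stroma and at 184, 168, 154 and 151 CPM in peritoneal stroma, again without overlap (log2 fold change -3.12 ± 0.19 (SE), adjusted p = 4.44e-06). It has a near copy, C1rb, in which 37.6% of its 50-base windows also occur, so that reads could be split between them. C1s1, its partner protease and not one of the 33, went the same way (log2 fold change -3.70 ± 0.25 (SE), adjusted p = 7.37e-06).

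C3, the component on which all branches converge, was at 327, 569.8, 661 and 380.3 CPM in liver stroma and at 2206, 1935, 1803 and 1834 CPM in peritoneal stroma. Every peritoneal library was above every liver library (log2 fold change -2.05 ± 0.21 (SE), adjusted p = 8.99e-05). C2, the protease of the classical C3 convertase, was at 11.5, 15.2, 10.6 and 5.55 and at 63.8, 71.3, 45.9 and 58.5 CPM (log2 fold change -2.53 ± 0.27 (SE), adjusted p = 0.000103). Cfb, factor B of the alternative convertase, lies next to C2 on chromosome 17 and was at 172, 184, 157 and 137 and at 440.0, 356, 276 and 381 CPM (log2 fold change -1.21 ± 0.15 (SE), adjusted p = 0.000276). Both genes were higher in peritoneal stroma of each mouse, Cfb by the smaller margin. C4b, which encodes C4, was at 101, 206, 158 and 97.1 and at 618, 463, 355 and 396 CPM (log2 fold change -1.75 ± 0.27 (SE), adjusted p = 0.000918). C4a, its near copy, was lower in liver stroma too (log2 fold change -1.10 ± 0.21 (SE), adjusted p = 0.00347), but 27.5% of its 50-base windows occur in C4b and 33% of those of C4b occur in C4a, so that the split between them is uncertain.

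The promoters of C3 (chr17:57228087-57228386, minus strand, GRCm38.p6) and C1ra (chr6:124512371-124512670, plus strand) are shown as those of 2 of the genes higher in peritoneal stroma that had an entry. The capitals mark a TATA box (TATAAA, in 13.6% of promoters) in C3 and a GAS motif (TTCNNNGAA, in 8.29%) in C1ra, with no overlap of motifs in either. Both matches began after the annotated start site, at positions 15 and 33. These matches are a description of the letters and not of binding.
C3: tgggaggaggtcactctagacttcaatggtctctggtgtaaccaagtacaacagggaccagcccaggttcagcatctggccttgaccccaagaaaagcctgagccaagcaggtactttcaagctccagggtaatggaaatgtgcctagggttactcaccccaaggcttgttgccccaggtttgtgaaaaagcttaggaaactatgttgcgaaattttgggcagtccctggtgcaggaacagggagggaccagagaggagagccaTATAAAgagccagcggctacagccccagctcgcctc
C1ra: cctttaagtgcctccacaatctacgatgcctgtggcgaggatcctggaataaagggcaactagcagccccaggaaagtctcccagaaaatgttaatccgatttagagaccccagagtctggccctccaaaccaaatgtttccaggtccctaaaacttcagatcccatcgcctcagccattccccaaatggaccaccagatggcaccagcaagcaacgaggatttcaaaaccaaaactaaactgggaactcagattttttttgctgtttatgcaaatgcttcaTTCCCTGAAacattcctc

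C7, a component of the pore, was the only terminal gene that was lower in liver stroma, at 0.682, 0.351, 0 and 0.159 CPM against 6.98, 1.03, 1.52 and 0.698 CPM (log2 fold change -3.07 ± 0.94 (SE), adjusted p = 0.0315). Mouse 1 held most of the peritoneal value, and the call ended without that library (adjusted p = 0.0982) and without each of the liver libraries of mice 2, 3 and 4 (adjusted p from 0.0539 to 0.0814). The fibroblast list, all 7 genes of which were lower in liver stroma, moved with these 8 genes, and its part in the result was not tested. The macrophage list, of which 2 of 7 genes were higher in liver stroma and none lower, lay between 5099 and 6043 CPM in liver stroma and between 3659 and 5164 CPM in peritoneal stroma.

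Vsig4, the complement receptor of the immunoglobulin family by which resident macrophages such as Kupffer cells take up C3-coated particles, was higher in liver stroma. It was at 43.5, 73.1, 26.6 and 25.9 CPM there and at 6.46, 0.89, 1.0 and 4.54 CPM in peritoneal stroma. The sites did not overlap (log2 fold change 3.66 ± 0.62 (SE), adjusted p = 0.00166). The Kupffer list (Clec4f, Timd4, Marco, Cd5l and Folr2) lay between 196 and 515 CPM in liver stroma and between 20.4 and 120.1 CPM in peritoneal stroma, where Clec4f was at 0. Of its 5 genes, 3 were higher in liver stroma and none lower, and the lowest log2 fold change, -1.52, did not pass. The part of this list in the Vsig4 result was not tested.

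Liver stroma was also higher in some components that hepatocytes secrete. C8a was at 2.31, 4.84, 1.74 and 1.11 CPM in liver stroma and gave 3 counts in all 4 peritoneal libraries (adjusted p = 0.000328). C9 was at 1.23, 3.33, 0.82 and 0.476 CPM and gave 2 counts in the peritoneal libraries (adjusted p = 0.00119). Cfi, the protease that cuts C3b and C4b apart, was at 3.2, 5.3, 3.07 and 3.13 CPM in liver stroma and at 1.27, 1.31, 0.45 and 1.24 CPM in peritoneal stroma (log2 fold change 1.74 ± 0.36 (SE), adjusted p = 0.00457), a call that ended when all 25 libraries entered 1 fit (adjusted p = 0.0579). These 3 genes did not overlap between the sites and were highest in mouse 2, whose library held the highest hepatocyte list, at 254 CPM against 39.5 to 106 in the other 3 mice. The part of hepatocyte RNA in these values was not tested. Hc, which encodes C5, was at 1.23, 6.77, 0.649 and 1.43 CPM in liver stroma, with mouse 2 far above the others, and at 0.784, 0.797, 0.554 and 0.427 CPM in peritoneal stroma (log2 fold change 1.93 ± 0.70 (SE), adjusted p = 0.0587). Masp1, a protease of the lectin pathway, was at 23.8, 83.1, 33 and 33.4 CPM and at 14.7, 24.8, 22.7 and 11 CPM, so that the sites overlapped slightly although the test passed (log2 fold change 1.20 ± 0.40 (SE), adjusted p = 0.0433). That call ended without any 1 of 5 libraries (liver mice 2 and 4, peritoneal mice 1, 3 and 4, adjusted p from 0.0543 to 0.102) and with sequencing lane as a term (adjusted p = 0.0694), and the log2 fold change was 0.67 without liver mouse 2.

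Other components did not pass the test between the stromal sites. Properdin (Cfp), which steadies the alternative convertase, was at 224, 237, 251 and 234 CPM in liver stroma and at 259, 236, 268 and 245 CPM in peritoneal stroma (log2 fold change -0.14 ± 0.08 (SE), adjusted p = 0.187). The receptors for the fragments C3a and C5a overlapped as well. C3ar1 averaged 245 ± 22.1 and 212 ± 38.7 CPM (log2 fold change 0.17 ± 0.13 (SE), adjusted p = 0.376) and C5ar1 278 ± 17.3 and 236 ± 55.3 CPM (log2 fold change 0.19 ± 0.15 (SE), adjusted p = 0.367), each as mean ± SD of 4 mice. C6, a terminal component, was at 46.4, 50.6, 20.4 and 31 CPM in liver stroma and at 41.4, 17.2, 18.3 and 30.9 CPM in peritoneal stroma (log2 fold change 0.42 ± 0.34 (SE), adjusted p = 0.385). It was the only terminal gene above 10 CPM in the mean of any group. Masp2 was between 1.76 and 2.84 CPM in all 8 stromal libraries. Cfd, known as a product of fat cells, was at 0 in liver stroma and at 2.54, 0.0469, 1.8 and 0.116 CPM in peritoneal stroma, and C8b and C8g, the other chains of C8, stayed under 0.4 and 0.8 CPM in every library, so that none of the 3 passed the filter in this comparison. Cd59a, an inhibitor of the pore, missed the threshold between the stromal sites (log2 fold change -0.60 ± 0.22 (SE), adjusted p = 0.0613) and passed with the mouse as a block (adjusted p = 0.0281).

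**Figure D3:**
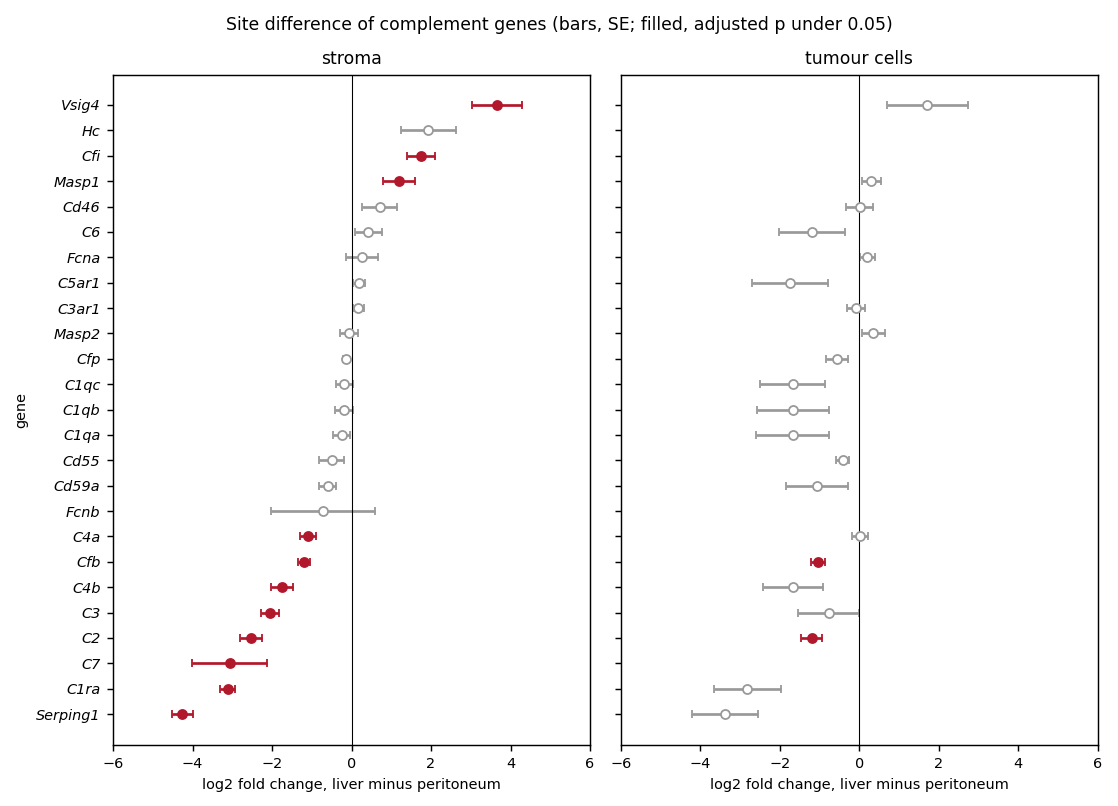
Log2 fold change of liver over peritoneum for 25 complement genes in stroma (left) and for the 21 of them tested in tumour cells (right), with SE bars from the edgeR fit and filled points at an adjusted p under 0.05. C8a and C9, with 3 counts or fewer in peritoneal stroma, are left out. In stroma 11 of the plotted genes pass, from Serping1 at -4.26 to Vsig4 at 3.66, and in tumour cells only Cfb and C2 pass, at -1.05 and -1.20.

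Tumour cells held much less of most complement RNAs. The level in tumour cells was set as a percentage of that in stroma of the same mouse and site, beside the same ratio for marker lists. The macrophage list of tumour cells was at a median of 0.743% of the stromal level in liver and 0.786% in peritoneum, and the fibroblast list at 0.904% and 0.405%. C1qa, C1qb, C1qc and C5ar1 lay at medians between 0.235% and 0.727%, and Serping1 and C1ra at 1.51% and 0.884% in liver and at 0.387% and 0.376% in peritoneum. All of these 6 genes but C1ra gave at most 3 counts in any group of cultures. C1ra was at 0.993 ± 0.552 CPM in BMEL WT cells (SD, n = 3) and was also tested in the Ras cultures. Its difference from BMEL WT did not pass the edgeR test in RasLOW (log2 fold change -0.46, adjusted p = 0.84) or RasHIGH cells (-0.16, adjusted p = 0.868). In peritoneal tumour cells of mouse 1 the C1q chains lay between 3.6% and 3.94% of stroma, and C3, C4b, C1ra, Serping1 and C5ar1 between 2.4% and 3.65%, where the macrophage list was at 3.72% and the fibroblast list at 2.77%.

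Other members lay above the macrophage and fibroblast lists in both tumours, though not all of them above every stromal list. Cd55 was at medians of 72.8% in liver and 64.9% in peritoneum, Masp2 at 56% and 37.8%, Fcna at 20.7% and 23.2%, C4a at 29.9% and 13%, C2 at 20.7% and 7.72%, Masp1 at 7.9% and 13.4%, Cfb at 11% and 9.58% and C3ar1 at 3.33% and 4.44%. Among other stromal lists, the dendritic cell list was at medians of 7.76% in liver and 13.2% in peritoneum, and the lymphoid and NK list at 6.93% and 7.24%. The list of peritoneal macrophage genes was at 57.1% and 57.4%, with 1 of its 6 genes lower in stroma at both sites. Medians of the leukocyte, Kupffer, endothelial, neutrophil and monocyte lists lay between 0.244% and 1.91%. Whether the reads of these members came from stroma was not tested. Cfb was the most abundant member per kilobase in peritoneal tumour cells, at 12.4 CPM, and Fcna in liver tumour cells, at 8.6 CPM.

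**Figure D4:**
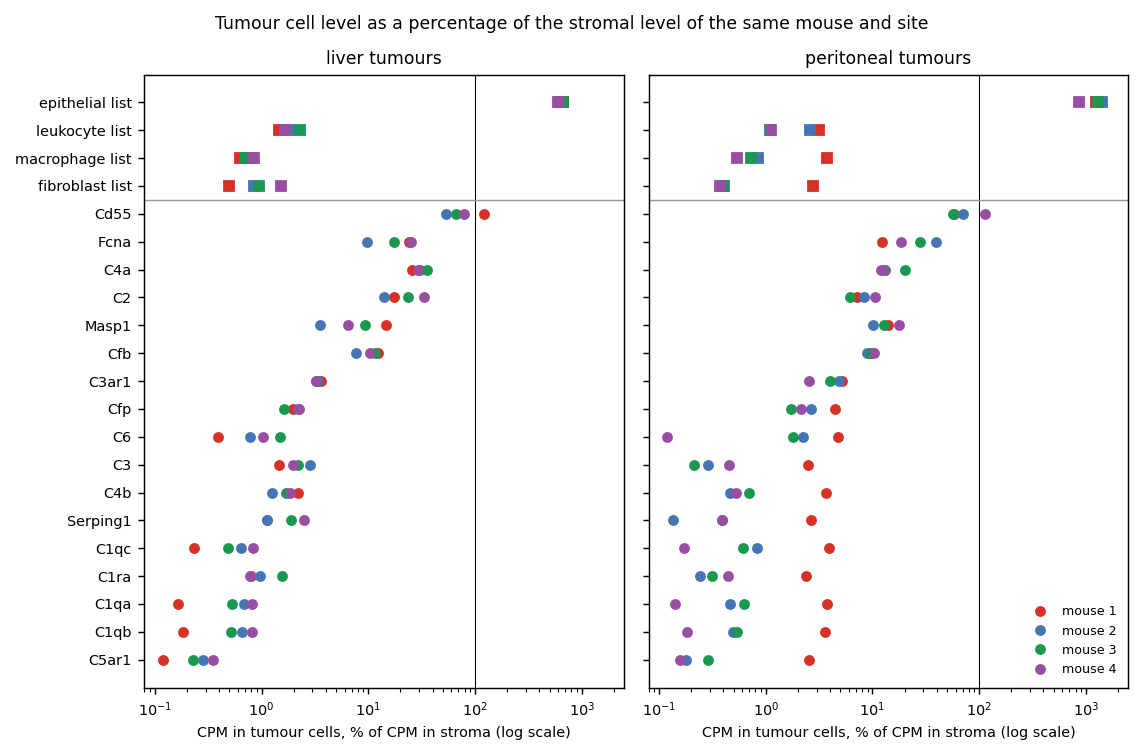
CPM in tumour cells as a percentage of CPM in stroma of the same mouse and site (log scale), for the 17 complement genes with a stromal mean of 10 CPM or more at both sites (circles) and 4 marker lists (squares), coloured by mouse. C1q, C5ar1, C1ra and Serping1 lie near the macrophage and fibroblast lists, Cd55, Fcna, C4a, C2, Masp1 and Cfb lie above them, and mouse 1 is shifted to the right in peritoneal tumours for the former genes and the lists.

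Between the tumour cells of the 2 sites, 21 members were tested, 2 were lower in liver and none higher, against 1.87% and 1.33% of all genes tested. By the study's thresholds for sorted cells (log2 fold change over 1 in size and p under 0.05, here the unadjusted edgeR p), 5 were lower in liver, and 3.52% of all genes differed. Cfb was at 21.4, 14.2, 18.2 and 14.3 CPM in liver and at 42.9, 31.8, 26 and 39.1 CPM in peritoneal tumour cells, without overlap (log2 fold change -1.05 ± 0.18 (SE), adjusted p = 0.0202). C2 was at 2.01, 2.15, 2.51 and 1.86 CPM and at 4.53, 5.95, 2.82 and 6.2 CPM, also without overlap (log2 fold change -1.20 ± 0.27 (SE), adjusted p = 0.0422). With the mouse as a block, Cfb kept its call (adjusted p = 0.0389) and C2 did not (adjusted p = 0.119). Without 1 library, C2 was lost in 6 of 8 cases (each liver mouse and peritoneal mice 2 and 4, adjusted p from 0.0695 to 0.126) and Cfb in 2 of 8 (liver mice 2 and 4, adjusted p of 0.0817 and 0.0704). With sequencing lane as a term C2 did not pass either (adjusted p = 0.101).

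Fcna overlapped between the tumour cells of the sites, at 15, 8.42, 12.1 and 12.3 CPM in liver and at 12.3, 9.13, 8.45 and 11.7 CPM in peritoneum (log2 fold change 0.19 ± 0.19 (SE), adjusted p = 0.612). Serping1 was at 0.639, 0.735, 1.39 and 0.832 CPM in liver and at 27.3, 1.55, 5.13 and 2.95 CPM in peritoneal tumour cells, without overlap, and missed the threshold (log2 fold change -3.38 ± 0.83 (SE), adjusted p = 0.056). Without peritoneal mouse 1 it passed with a log2 fold change of -1.85 (adjusted p = 0.0243). The fibroblast list, of which 5 of 7 genes were lower in liver tumour cells, moved the same way, and its part in the result was not tested. C1ra (log2 fold change -2.82 ± 0.85 (SE), adjusted p = 0.1) and C4b (log2 fold change -1.67 ± 0.75 (SE), adjusted p = 0.247) did not pass. Over the alternatives the log2 fold change ran from -3.37 to -1.14 for C1ra and from -1.99 to 0.08 for C4b, and the values nearest to 0 or above it were those without mouse 1. Cfd was at 2.06 CPM in peritoneal tumour cells of mouse 1 and under 0.03 CPM in the others.

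The site difference of the stroma was also tested against that of the tumour cells, as an interaction over the 16 sorted libraries. Of 28 members tested, 2 had a more negative site difference in stroma and none a more positive one, against 6.79% and 7.5% of all genes tested. For C2 the difference of the log2 fold changes was -1.26 ± 0.39 (SE, adjusted p = 0.0422), and for C4a it was -1.02 ± 0.29 (SE, adjusted p = 0.0282). C4a was at 5.75, 4.89, 4.79 and 3.94 CPM in liver and at 5.74, 4.67, 5.15 and 3.58 CPM in peritoneal tumour cells, which overlapped, whereas in stroma it was at 22.4, 15.9, 13.5 and 13.6 and 44.2, 36.2, 25.5 and 29.8 CPM. The call of C2 ended without any 1 of 10 of the 16 libraries (all 4 of liver tumour cells, peritoneal tumour cells of mouse 3, liver stroma of mice 1, 3 and 4, peritoneal stroma of mice 1 and 2, adjusted p from 0.0544 to 0.0711) and that of C4a without any 1 of 5 (liver tumour cells of mice 1 and 2, peritoneal tumour cells of mouse 4, liver stroma of mice 3 and 4, adjusted p from 0.0503 to 0.0615). Without peritoneal tumour cells of mouse 1, the count rose to 6, with C1ra, C3, C4b and Serping1 added. The share of all genes called in that fit is not given here. C7 was at 0 in all tumour cells, so that its interaction has no usable value.

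In cultured cells the question was how complement genes varied with the Ras level. Of the 33 members, 13 passed the filter for RasLOW against BMEL WT, 14 for RasHIGH against BMEL WT and 12 for RasHIGH against RasLOW. Of the 24984 genes of the count table, 12307, 12331 and 11962 passed. At an adjusted p under 0.05, 2 fell and none rose in RasLOW cells, against 4.05% and 1.92% of all genes tested. The study's thresholds for cultures (log2 fold change over 1.5 in size and p under 0.01, here the unadjusted edgeR p) called 1 member and 4.4% of all genes. In RasHIGH cells 5 fell and 1 rose at an adjusted p under 0.05, against 11.7% and 10.9%. None differed between RasHIGH and RasLOW cells, where 0.0752% of all genes tested did by edgeR. In that comparison 3 members had an unadjusted p under 0.05 (9.78% of all genes), and the study's thresholds called 1 (2.12% of all genes). Fcna and Masp1 passed with DESeq2 (adjusted p = 0.00121 and 0.0157). The share of all genes that DESeq2 called is not given here, so that this describes the 2 genes only. The median log2 fold change of the members was -0.57 in RasLOW and -0.68 in RasHIGH cells, and 0.01 and -0.02 over all genes. Both Ras populations were set against the same 3 BMEL WT libraries, so that their values are given side by side and not as separate support.

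**Figure D5:**
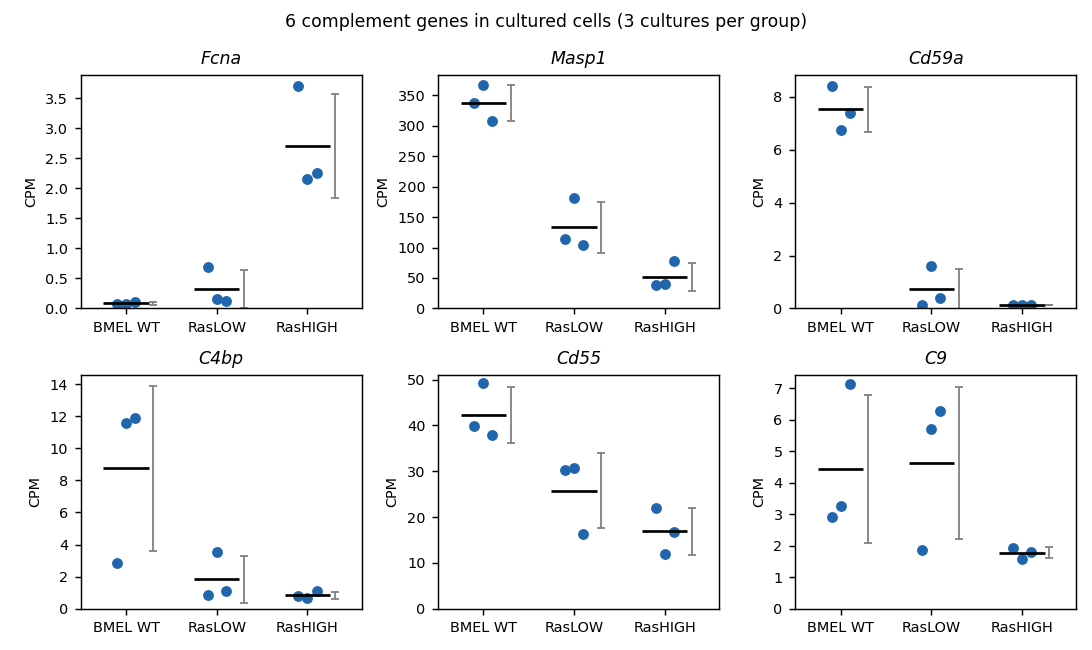
CPM of 6 complement genes in each of the 3 cultures (points) of BMEL WT, RasLOW and RasHIGH cells, with the mean (line) and SD (grey bar). Fcna is highest in RasHIGH cells, Masp1, Cd59a, C4bp and Cd55 are highest in BMEL WT cells, and C9 lies between 1.59 and 1.93 CPM in RasHIGH cells.

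Fcna was the member that rose. It was at 0.0698, 0.0689 and 0.111 CPM in BMEL WT, at 0.683, 0.164 and 0.122 CPM in RasLOW and at 3.71, 2.15 and 2.25 CPM in RasHIGH cells. Every RasHIGH culture was above every other culture (log2 fold change 4.91 ± 0.45 (SE), adjusted p = 0.000758 against BMEL WT). The BMEL WT values rest on 2, 2 and 3 counts, at or under the floor of 3 counts, so that the size of this difference is uncertain, while the step from RasLOW to RasHIGH missed the threshold (log2 fold change 3.06 ± 0.67 (SE), adjusted p = 0.17). Tumour cells of both sites held more, from 8.42 to 15 CPM, a comparison across experiments that was not tested. The Fcna promoter (chr2:25627925-25628224, minus strand, GRCm38.p6) held none of the 8 motifs.
Fcna: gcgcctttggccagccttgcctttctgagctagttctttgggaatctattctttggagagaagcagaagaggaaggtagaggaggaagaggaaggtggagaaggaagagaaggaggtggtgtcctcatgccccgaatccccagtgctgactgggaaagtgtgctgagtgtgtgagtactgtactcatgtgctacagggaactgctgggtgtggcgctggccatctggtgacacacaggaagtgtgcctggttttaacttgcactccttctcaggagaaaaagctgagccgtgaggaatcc

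Cd59a, the membrane protein that blocks assembly of the pore, fell most. It was at 8.41, 6.75 and 7.4 CPM in BMEL WT, at 0.144, 1.61 and 0.405 CPM in RasLOW and at 0.114, 0.129 and 0.135 CPM in RasHIGH cells. The 3 groups did not overlap, although 1 RasLOW culture lay close to RasHIGH cells. The RasHIGH values lay at the floor of 3 counts per library. The size of their difference from BMEL WT and their separation from RasLOW cells are therefore uncertain, and the latter was not tested. The test gave log2 fold change -3.37 ± 0.75 (SE), adjusted p = 0.0442 for RasLOW and log2 fold change -5.89 ± 0.31 (SE), adjusted p = 0.000134 for RasHIGH against BMEL WT. Its promoter (chr2:104095551-104095850, plus strand, GRCm38.p6) held 1 match, to the ISRE motif, found in 3.43% of promoters.
Cd59a: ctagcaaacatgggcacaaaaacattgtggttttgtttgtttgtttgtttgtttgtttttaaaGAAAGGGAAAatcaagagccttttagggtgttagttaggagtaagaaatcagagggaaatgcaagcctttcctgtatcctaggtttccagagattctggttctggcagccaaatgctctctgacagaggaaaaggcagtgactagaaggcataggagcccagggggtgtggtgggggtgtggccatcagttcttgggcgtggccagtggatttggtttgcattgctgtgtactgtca

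Tumour cells were also low in Cd59a, at 0.16, 0.198, 0.242 and 0.288 CPM in liver and at 0.936, 0.272, 0.595 and 0 CPM in peritoneum, whereas stroma averaged 8.58 ± 2.27 and 12.6 ± 2.71 CPM (SD, n = 4 each). Cd55, which speeds the decay of convertases on the cell surface, was at 39.8, 49.2 and 37.9 CPM in BMEL WT, at 30.2, 30.7 and 16.4 CPM in RasLOW and at 21.9, 11.9 and 16.8 CPM in RasHIGH cells. It fell in RasHIGH cells (log2 fold change -1.37 ± 0.23 (SE), adjusted p = 0.00739) and did not pass in RasLOW cells (log2 fold change -0.75 ± 0.26 (SE), adjusted p = 0.143). In the sorted cells Cd55 stayed between 17.8 and 60.8 CPM, and stroma and tumour cells did not pass the test at either site (log2 fold change 0.50 in liver, adjusted p = 0.0782, or 0.0434 with the mouse as a block, and 0.45 in peritoneum, adjusted p = 0.147). Cd46, the cofactor for the cutting of C3b, which in mice is known mainly from the testis, stayed under 1 CPM in every library.

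Among the 33 members, Masp1 was the most abundant in BMEL WT cells per kilobase, with a mean of 56 CPM per kilobase against 8.72 for Cd55, the next. It was at 337, 367 and 307 CPM in BMEL WT, at 115, 181 and 104 CPM in RasLOW and at 38.3, 39.5 and 77.5 CPM in RasHIGH cells. No cultures of any 2 groups overlapped. It fell in RasLOW cells (log2 fold change -1.37 ± 0.24 (SE), adjusted p = 0.0219), with log2 fold change -2.74 ± 0.30 (SE), adjusted p = 0.00144 in RasHIGH cells, and the step from RasLOW to RasHIGH missed the threshold (log2 fold change -1.36 ± 0.36 (SE), adjusted p = 0.233). In tumour cells it was at 3.49, 2.91, 3.06 and 2.18 CPM in liver and at 2.06, 2.5, 2.88 and 1.96 CPM in peritoneum, below every culture, a comparison across experiments that was not tested. C4bp, which takes the classical convertase apart, was at 2.83, 11.6 and 11.9 CPM in BMEL WT, at 0.863, 3.51 and 1.13 CPM in RasLOW and at 0.796, 0.646 and 1.08 CPM in RasHIGH cells, and fell in the latter (log2 fold change -3.41 ± 0.59 (SE), adjusted p = 0.00747). In sorted cells it stayed under 2 CPM.

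C9 was the only terminal component above 1 CPM in cultures, at 2.9, 3.27 and 7.14 CPM in BMEL WT, at 1.87, 5.71 and 6.28 CPM in RasLOW and at 1.93, 1.59 and 1.8 CPM in RasHIGH cells. Its fall in RasHIGH cells was at the threshold (log2 fold change -1.36 ± 0.40 (SE), adjusted p = 0.0488) and ended in 11 of the alternatives, among them leaving out any library other than BMEL WT 1 (adjusted p from 0.0573 to 0.147). The 2 calls of RasLOW cells, Masp1 and Cd59a, were likewise lost without any 1 of 5 of the 6 libraries (all but RasLOW 2, adjusted p from 0.0578 to 0.147). Without RasLOW 2 the count rose to 5, with C2, C4bp and Cd55 added, and the share of all genes called in that fit is not given here. Of the BMEL WT libraries 1 shared its sequencing lane with the Ras libraries. With that library alone as control, assumed to vary like the Ras cultures, all 6 RasHIGH genes kept their direction and 2 kept their call, while the log2 fold change was 4.5 for Fcna (adjusted p = 0.0614), -2.61 for Masp1 (0.0524), -2.05 for C9 (0.0679) and -1.21 for Cd55 (0.201). The RasLOW values were -1.24 for Masp1 (adjusted p = 0.549) and -3.36 for Cd59a (0.599).

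The other members expressed in cultures did not pass the test. Cfb was at 12.8, 13.6 and 29.1 CPM in BMEL WT and at 16.6, 17.9 and 20.7 CPM in RasHIGH cells (log2 fold change -0.04 ± 0.33 (SE), adjusted p = 0.945). C3ar1, a receptor known from myeloid cells, was at 5.59, 10.6 and 11.6 CPM in BMEL WT, at 20.6, 5.25 and 11.1 CPM in RasLOW and at 3.49, 7.41 and 8.61 CPM in RasHIGH cells. Of the 7 genes of the macrophage list, Adgre1 and Fcgr1 were at 0 in all cultures and Lyz2 also in RasHIGH cells, and the summed level of the list was between 6.73 and 13.6 CPM. Its part in the C3ar1 values was not tested. C3 itself was low in all cultures, at 3.21 CPM or less, and had log2 fold change -2.46 ± 0.96 (SE), adjusted p = 0.115 in RasHIGH against BMEL WT cells. C2, C1ra, C4a, Masp2 and Cfp lay between 0.0719 and 4.43 CPM. Mbl1, Mbl2, Fcnb, Cfd, C7, C8a, C8b and Vsig4 gave no count in any culture.

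Of 23 further complement genes, fixed as a list beside the 33, 18 were tested in the comparison of liver stroma with liver tumour cells, of which 15 were higher in stroma and 2 lower, and 16 in peritoneum, of which 13 were higher and 3 lower. Of all genes tested, 39.4% were higher and 38.4% lower in liver, and 37.1% and 39.5% in peritoneum. Itgax and Itgam, subunits of the complement receptors CR4 and CR3, had the largest differences in liver (log2 fold changes 8.98 and 8.52, adjusted p = 1.17e-11 and 8.43e-12). Clu, the pore inhibitor clusterin, was lower in stroma than in tumour cells in liver (log2 fold change -2.17 ± 0.16 (SE), adjusted p = 1.54e-07) and in peritoneum (log2 fold change -3.52 ± 0.10 (SE), adjusted p = 4.6e-07), as were C1qbp at both sites (log2 fold changes -0.60 and -0.89) and Cpn1 in peritoneum (-2.74). Between the stromal sites 8 of 19 tested were higher in liver and 4 lower, against 14.9% and 18.5% of all genes tested. Cr2, the receptor for C3d on B cells, was among the former (log2 fold change 3.53 ± 0.40 (SE), adjusted p = 0.000156), and C1s1 and Csmd1 were the lowest in liver (log2 fold change -4.05 for Csmd1, adjusted p = 0.00039). Cr1l was lower as well (-0.33). In cultures 1 of 9 tested fell in RasHIGH cells and none rose, Susd4 (log2 fold change -6.66 ± 0.95 (SE), adjusted p = 0.00882), and of 8 tested in RasLOW cells none passed by edgeR, with 1 at an unadjusted p under 0.05. Of all genes tested, 10.9% rose and 11.7% fell in RasHIGH cells, and 1.92% and 4.05% in RasLOW cells.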

How the data were processed

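RNA of 9 cultures and 16 sorted populations was sequenced as 25 libraries. The deposited values are whole read counts per gene, which the authors made after aligning reads to mm9 with TopHat2 per the methods. The submitters' processing notes also name FastQC, Bowtie 0.12.2, mm8 and mm10. The counting program, its annotation and its use of strand are not given in the sources used here, so that reads of overlapping or near-identical genes could be split.

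Groups came from the sample labels, and the cultures were described as independent biological samples. Levels are CPM, counts divided by library totals, scaled by TMM factors of all 25 libraries, and per kilobase by the exon length of GENCODE on mm9. Each comparison was fitted on its own libraries with the edgeR 4.0.16 quasi-likelihood test in R 4.3.3, after its filter on low counts (minimum count 10) and TMM scaling, p-values being adjusted by Benjamini-Hochberg across every gene that was tested, with a threshold of 0.05. A log2 fold change is the first group named over the second, and its SE is its size divided by the square root of the F statistic. A group without counts was set at a floor of 3 counts per library. The floor and the SD cover these libraries only. All members were accounted for, and full statistics were given for up to 6 members each way with the largest change among those past the threshold. Members and lists were chosen with earlier results of these data known. In the list of further complement genes, 1 gene is counted but its own values are not reported here. Mouse numbers pair the sorted libraries by label, and the deviations of same-numbered libraries from their group means had a mean r of -0.04 between tumour cells of both sites, 0.20 between stroma of both sites, and 0.23 and 0.20 between stroma and tumour cells in liver and peritoneum. Tested on simulated data, the fit recovered 183 of 200 genes changed by 2.5 on the log2 scale and 1 of 200 changed by 1 for RasHIGH against BMEL WT (12189 and 12192 genes), and 193 and 133 of 200 for the stromal sites (14619 and 14607 genes). The alternatives were DESeq2 1.42.0, RLE scaling, no filter, the replicate block, 1 fit of all libraries, the study's call thresholds, sequencing lane, and leaving out each library. The study's thresholds were applied to the unadjusted edgeR p.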

Additional observations from a re-analysis of the deposited data

Results flagged for a closer look

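In sets of 4 libraries, the highest or lowest value was compared with Dixon's 95% critical value for the 79 sets of a member and a sorted population with a mean of 1 CPM or more. Of these, 15 held an outlying library. The rate of 1 in 20 belongs to independent, normally distributed values. These sets are unlogged CPM from the same 16 libraries, so that it gives no expected count for them. In peritoneal tumour cells of mouse 1, 8 members stood above the other 3 mice: C3 at 54.6 CPM, C1qa at 39.4 CPM, C1qc at 29.4 CPM, C1qb at 29 CPM, Serping1 at 27.3 CPM, C4b at 22.6 CPM, C5ar1 at 7.65 CPM and C1ra at 4.43 CPM. The macrophage list (192 CPM against 26.4 to 34.9) and the fibroblast list (1461 CPM against 212 to 325) stood apart in the same library. So did the endothelial, neutrophil, monocyte and Kupffer lists, though not the dendritic cell list, and the part of these lists in the values was not tested.

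In liver stroma of mouse 2, 3 members stood above the rest, Masp1 at 83.1 CPM, Hc at 6.77 CPM and Cfi at 5.3 CPM, in the library with the highest hepatocyte list (254 CPM). In peritoneal stroma of mouse 1, Fcnb was at 18.9 CPM and C7 at 6.98 CPM. The other outlying values were low ones, C1qa at 1.32 CPM in liver tumour cells of mouse 1 and Cfi at 0.45 CPM in peritoneal stroma of mouse 3.

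The site difference in stroma differed from that in tumour cells by the interaction test for C2, by -1.26 on the log2 scale, and for C4a, by -1.02. These were 2 of 28 members tested, against 6.79% of all genes tested. The call of C2 ended without any 1 of 10 libraries and that of C4a without any 1 of 5.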

How the results depend on the processing

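The count of members that differed between the stromal sites (13) ranged from 11 to 17 over all alternatives, and those of stroma against tumour cells (25 in liver, 21 in peritoneum) from 24 to 27 and from 21 to 23. The smaller counts moved more. For RasLOW against BMEL WT the count of 2 became 1 with the replicate block or the study's thresholds, and 0 to 5 without 1 library. For RasHIGH against BMEL WT the 6 became 2 with libraries of 1 lane. For RasHIGH against RasLOW the 0 became 2 with DESeq2 or all 25 libraries in 1 fit, and 1 with the study's thresholds. For tumour cells of the 2 sites the 2 became 4 with no filter or all 25 libraries in 1 fit, 1 with the replicate block, 5 with the study's thresholds, and 0 to 4 without 1 library. For the interaction the 2 became 0 to 6 without 1 library and 4 without all libraries of mouse 1, an alternative chosen after seeing the data. Where libraries were left out the fits had fewer samples, and otherwise the cause was not tested. The shares of all genes called in these refits are not given here, so that their counts describe the members only.

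Over 166 values of single members, 2586 alternative values held 2465 that changed no call, 71 that lost a call, 49 that gained one and 1 reversal, Fcnb between the stromal sites whose log2 fold change ran from -1.14 to 3.28 without 1 library and was 3.28 without peritoneal stroma of mouse 1. Values that did not pass the test could change sign without a change of call, as Fcnb did with the mouse as a block (1.98). Culture numbers do not pair the cultures (mean r of their deviations from -0.30 to 0.06), and with the block the RasHIGH count stayed at 6, with C3 gained (adjusted p = 0.0319) and C9 lost (0.0722). With the mouse as a block the calls that changed were those given with the results. A scaling of levels over all libraries shifted the median gene by at most 0.066 on the log2 scale. Members under the floor of 0.0585 to 0.144 CPM in both groups could not be compared at this depth.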
